A study of Mus musculus with 151 samples.

Results

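*Slc7a14*, *Marchf4* and *Rps6ka2* are 3 genes that mark inner hair cells (IHCs), and they are described here across all single cells of the series. They were taken by name from the count matrix and are 3 of its 55291 genes. The cells were 55 IHCs at postnatal day 14 (P14_WT IHCs), 50 IHCs at postnatal day 30 (P30_WT IHCs) and 46 induced outer hair cells at postnatal day 14 (P14_iOHCs). All came from the cochlea of C57BL/6 mice and all carried 1 allele of vGlut3-P2A-iCreER, which drives tamoxifen-dependent Cre from the *Slc17a8* locus, and 1 allele of Ai9, the Tdtomato reporter that Cre switches on. Both WT groups had the genotype vGlut3-P2A-iCreER/+; Ai9/+, so the wild-type cells carried Cre and reporter too. The P14_iOHCs had the genotype vGlut3-P2A-iCreER/+; Tbx2 flox/-; Ai9/+, in which 1 *Tbx2* allele is lost in every cell of the animal and the other is recombined only where the *Slc17a8* locus drives Cre. Tamoxifen was given to neonatal pups of all groups, and single Tdtomato-positive cells were picked by hand. The P14_iOHCs were the smaller Tdtomato-positive cells of the mutant cochlea, and its larger Tdtomato-positive cells were not picked, so the levels below describe a chosen part of the mutant cells. The labels tie no cell to an animal, so each group was treated as 1 sample, the cells were not treated as replicates and no test was made. An SD below is the spread between cells of a group. An exact interval covers counting error only, as if cells were drawn independently, and not the spread between animals.

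IHCs and outer hair cells (OHCs) are the 2 kinds of sensory cell of the cochlea. IHCs release glutamate onto the auditory nerve and pass on most of what is heard, while OHCs amplify sound with the motor protein prestin, encoded by *Slc26a5*. *Tbx2*, a T-box transcription factor, is kept on in IHCs, and the P14_iOHCs are labelled as OHCs that arose from IHCs after its deletion. *Slc7a14* encodes a lysosomal membrane protein of the cationic amino acid transporter branch of the SLC7 family. *Marchf4* encodes a membrane-bound E3 ubiquitin ligase of the RING-CH family, whose members tag membrane proteins with ubiquitin and so send them for removal. *Rps6ka2* encodes RSK3, a ribosomal S6 kinase that the ERK cascade switches on. The question asked of these genes was whether an induced OHC that keeps one of them keeps the others.

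The 3 genes lie on 3 chromosomes, so they share no neighbourhood. In the GENCODE annotation of GRCm38, the build of the deposited counts, *Slc7a14* occupies chromosome 3, bases 31202858 to 31310378, on the minus strand, and its merged exons measure 9829 bases. *Marchf4*, still named *March4* in that annotation, occupies chromosome 1, bases 72427112 to 72536930, also on the minus strand, with 4553 bases of merged exons. *Rps6ka2* occupies chromosome 17, bases 7170115 to 7303315, on the plus strand, with 9978 bases of merged exons. The antisense gene *Gm15496* overlaps an exon of *Slc7a14*, and the processed pseudogene *Gm15843* lies within an intron of *Marchf4*. Smart-Seq HT libraries do not keep strand, so reads from an overlap cannot be assigned by strand. *Gm15496* reached at most 14.0 CPM in any cell, and neither overlapping gene had a count in any P14_iOHC. *Gm15843* was detected in 4 of 55 P14_WT IHCs and 14 of 50 P30_WT IHCs. It reached 113.6 CPM in the latter, where *Marchf4* had a median of 168 CPM. CPM is the count of a gene in each 1000000 counts of its cell.

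Because the 3 genes were lower together in the P14_iOHCs, the stretches just before their starts are shown. The sequences are RefSeq's for GRCm38.p6 and are written 5′ to 3′ along the strand of the gene, up to 250 bases before the RefSeq start and leaving out bases inside the gene. A match to GGTGTG, the core of the T-box half-site AGGTGTGA, or to the E-box CAGCTG, on either strand, would stand in capitals. The 3 windows are chr3:31310379-31310569 for *Slc7a14*, chr1:72537160-72537409 for *Marchf4* and chr17:7169865-7170114 for *Rps6ka2*.

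Slc7a14: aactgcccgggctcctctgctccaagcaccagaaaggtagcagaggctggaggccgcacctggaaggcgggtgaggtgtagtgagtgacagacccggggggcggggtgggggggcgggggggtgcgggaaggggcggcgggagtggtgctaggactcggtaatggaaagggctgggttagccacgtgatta

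Marchf4: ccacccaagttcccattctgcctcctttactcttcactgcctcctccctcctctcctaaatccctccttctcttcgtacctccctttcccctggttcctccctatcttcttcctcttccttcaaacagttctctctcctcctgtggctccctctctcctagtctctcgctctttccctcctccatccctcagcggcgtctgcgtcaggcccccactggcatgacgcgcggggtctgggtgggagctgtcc

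Rps6ka2: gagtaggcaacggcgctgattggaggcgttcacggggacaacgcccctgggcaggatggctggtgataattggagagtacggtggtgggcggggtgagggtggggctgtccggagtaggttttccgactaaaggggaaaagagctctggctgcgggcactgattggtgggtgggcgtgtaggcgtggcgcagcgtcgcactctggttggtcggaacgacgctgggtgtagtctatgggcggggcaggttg

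None of these windows holds either motif, so no base is in capitals. Of 32851 RefSeq windows of 250 bases, 16.3% hold GGTGTG, 1.12% hold the whole half-site and 13.0% hold CAGCTG. The windows are rich in G and C, at 67.0% before *Slc7a14*, 58.8% before *Marchf4* and 63.2% before *Rps6ka2*, beside a median of 52.4% over all windows. A missing match says only that these letters are not in these windows.

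Depth was high enough that a gene at 1 CPM gave several counts in every cell. Cells had between 4326416 and 25035444 counts in total, and 3 counts corresponded to between 0.120 and 0.693 CPM. No total lay between 10267217 and 11814928. Below that gap were 51 cells, called the lower set of totals, and above it 100, with cells of every group on each side, and the labels give no reason for the gap. No pair of cells had identical counts. Of 10 hair cell genes checked, 9 were detected in every cell of all 3 groups, with *Pcdh15* in 49 of 55 P14_WT IHCs, 43 of 46 P14_iOHCs and 48 of 50 P30_WT IHCs. The mean of *Pcdh15* in P14_WT IHCs was 77.5 CPM, so a cell can lack counts of a gene whose group mean is far above 1 CPM. A 0 below therefore means no count and does not show that a gene was off. Markers of supporting cells, the epithelial cells around hair cells, also moved with the groups. The summed level of 12 such markers had a median of 1.60 CPM in P14_WT IHCs, with a range from 0 to 1525, and of 817 CPM in P14_iOHCs, with a range from 0 to 8839. Among them *Prox1* was at 0 in all cells of both groups at P14, and *Epyc* was detected in 3 of 55 P14_WT IHCs and 31 of 46 P14_iOHCs.

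The P14_iOHCs as a group carried the OHC genes of their label. *Slc26a5* was detected in all 46 of them, from 142 to 2787 CPM, and in 2 of the 55 P14_WT IHCs, in which it reached 4.01 CPM. *Ikzf2*, a transcription factor of OHCs, was detected in 45 of 46 P14_iOHCs and in 1 of 55 P14_WT IHCs. *Tbx2* itself was detected in 45 of 46 P14_iOHCs at 69.3 ± 87.4 CPM (SD over cells) and in all P14_WT IHCs at 260 ± 127 CPM. Since only its second exon is deleted, counts over the whole gene cannot tell a recombined transcript from an intact one. One cell stood apart from the label: P14_iOHC 44 had the lowest *Slc26a5* (142 CPM), *Lbh* (0.280 CPM) and *Ocm* (614 CPM) of the 46, and its *Otof* (3235 CPM), *Lbh* and *Ocm* lay inside the range of the P14_WT IHCs. Its *Slc26a5* and its *Ikzf2* (75.5 CPM) lay above that range. It was kept.

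All 3 genes were on in every P14_WT IHC. *Slc7a14* ran from 99.0 CPM in the lowest of the 55 cells through a median of 351 to 960 in the highest, with a mean of 399 ± 178 CPM (SD). *Rps6ka2* ran from 38.7 through 418 to 812 CPM, with a mean of 441 ± 194. *Marchf4* was the most uneven, from 2.52 through 157 to 448 CPM, with a mean of 169 ± 101. Its lowest cell, P14_WT IHC 33, still had 52 counts. The coefficient of variation was 0.445 for *Slc7a14*, 0.440 for *Rps6ka2* and 0.600 for *Marchf4*, beside 0.257 for *Slc17a8*, the vesicular glutamate transporter of IHCs, and 0.253 for *Otof*, which encodes the calcium sensor of their synapse.

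Per kilobase of exon, the 3 levels came close to each other. In P14_WT IHCs *Rps6ka2* had 44.2 ± 19.4 CPM per kb, *Slc7a14* 40.6 ± 18.1 and *Marchf4* 37.0 ± 22.2, so the means of neighbours in this order differed by less than the spread between cells. *Rps6ka2* was the highest of the 3 per kb in 26 cells, *Marchf4* in 16 and *Slc7a14* in 13. The larger CPM of *Slc7a14* and *Rps6ka2* over *Marchf4* therefore went with their longer exons.

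**Figure D1:**
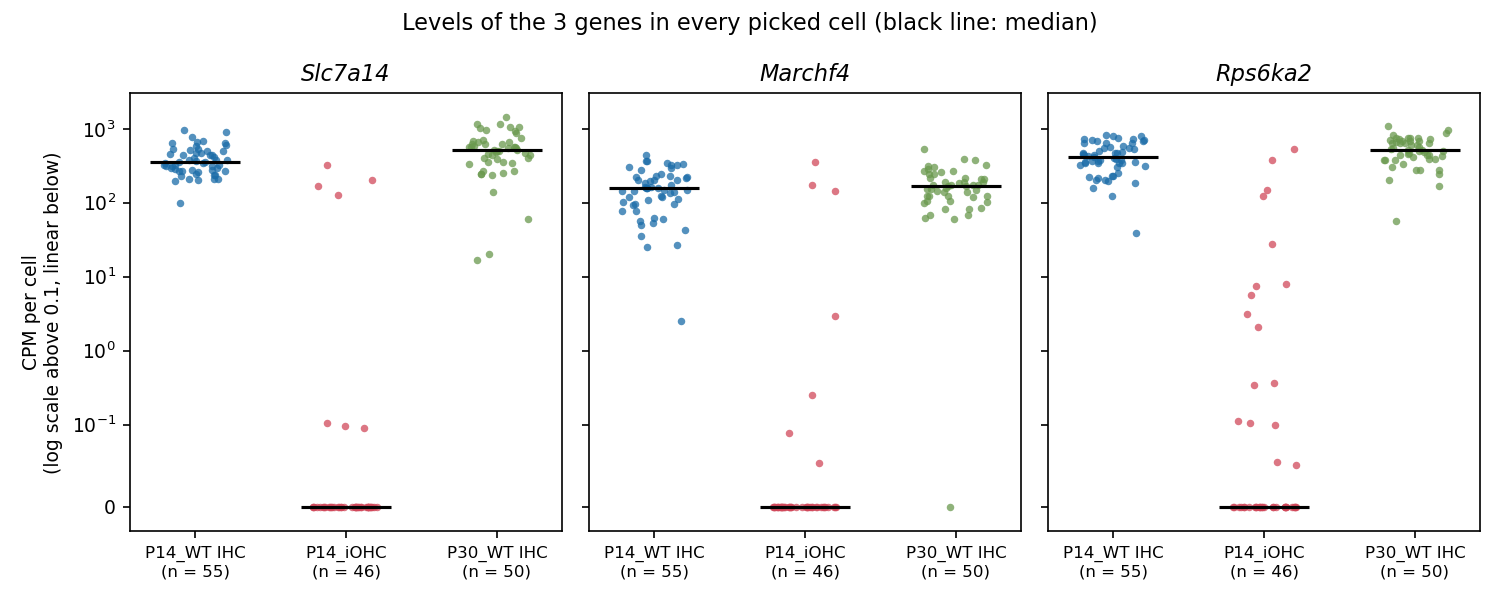
CPM per cell of each gene in the 55 P14_WT IHCs, 46 P14_iOHCs and 50 P30_WT IHCs, one point a cell, on an axis that is logarithmic above 0.1 CPM and linear below; black lines are medians. Most P14_iOHCs lie at 0 for all 3 genes, 4 lie among the IHCs for *Slc7a14* and *Rps6ka2*, and *Rps6ka2* also has a tail of cells between 0 and 27.4 CPM.

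In the P14_iOHCs the median of each gene was 0. At least 1 count of *Slc7a14* was found in 7 of 46 cells (15.2%, exact 95% interval 6.34 to 28.9), the highest cell had 320 CPM, and the mean was 17.8 ± 62.2 CPM. *Marchf4* was likewise found in 7 of 46 cells, with 355 CPM in the highest and a mean of 14.7 ± 61.0, or 7.16 without cell 44. *Rps6ka2* was found in 17 of 46 cells (37.0%, exact 95% interval 23.2 to 52.5), with 538 CPM in the highest and a mean of 27.2 ± 99.1, or 15.8 without cell 44. The SD of each gene was several times its mean, since a few cells held nearly all of the counts. For each gene 42 of the 46 P14_iOHCs lay below the lowest P14_WT IHC, and the other 4 lay inside the IHC range. These 4 were cells 1, 18, 29 and 44 for *Slc7a14* and *Rps6ka2*, and cells 1, 28, 29 and 44 for *Marchf4*. Cell 28 had 2.98 CPM of *Marchf4*, just above the lowest P14_WT IHC at 2.52, and cell 18 had 0.

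From counts summed over the cells, *Slc7a14* was 25.3-fold lower in P14_iOHCs than in P14_WT IHCs (15.7 against 396 CPM, log2 fold -4.65). *Rps6ka2* was 16.04-fold lower (26.5 against 425 CPM, log2 fold -3.999), and *Marchf4* was 10.8-fold lower (16.1 against 174 CPM, log2 fold -3.43). All 3 thus passed the fold used here for a call, over 2 on the log2 scale in size, as did 4.75% of the 13673 genes compared in the lower direction and 8.21% in the higher. Each of the 3 entered the comparison through its counts in P14_WT IHCs, so a low value in P14_iOHCs could not have removed it. Without P14_iOHC 44 the log2 folds were -5.01 for *Slc7a14*, -5.32 for *Rps6ka2* and -4.96 for *Marchf4*, and without P14_iOHC 29 that of *Slc7a14* was -5.53. The 3 genes were already on the study's list of IHC genes, which drew on the 50 P30_WT IHCs. The paper also reported *Slc7a14* among the IHC genes lowered in these same P14_iOHCs. Since the 3 genes were chosen with earlier results of these data known, their calls are not independent evidence of a direction.

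Other IHC genes were detected in more of the P14_iOHCs. *Otof* was detected in all 46 P14_iOHCs, *Slc17a8* in 40, *Fgf8* in 37 and *Tbx2* in 45, although the summed level of *Slc17a8* was 10.7-fold lower and that of *Otof* 8.10-fold lower than in P14_WT IHCs. Of the 1824 genes detected in every P14_WT IHC, 6 were detected in 7 or fewer P14_iOHCs, and the median gene was detected in all 46. *Slc7a14* and *Marchf4* are 2 of these 6, chosen after their values were seen. The others were *Ano4*, of the anoctamin family of membrane proteins, *Tpbgl*, *Nmnat2*, which makes NAD in axons, and *Ntf3*, which encodes neurotrophin-3. For *Rps6ka2*, 10 of the 1824 genes, itself included, were detected in 17 or fewer P14_iOHCs.

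A P14_iOHC that kept 1 of the genes did not always keep the others. With detection at 1 count or more, 25 of the 46 cells had none of the genes, 14 had exactly 1, 4 had exactly 2 and 3 had all 3. *Rps6ka2* alone was the most frequent pattern among cells with a count, in 11 cells. *Slc7a14* with *Rps6ka2* but not *Marchf4* was seen in cells 17 and 18. *Slc7a14* with *Marchf4* was seen in cell 28, and *Marchf4* with *Rps6ka2* in cell 39. *Marchf4* alone was seen in cells 20 and 45, and *Slc7a14* alone in cell 12. The cells with all 3 were cells 1, 29 and 44. By contrast, all 3 genes were detected together in 55 of 55 P14_WT IHCs and 49 of 50 P30_WT IHCs.

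**Figure D2:**
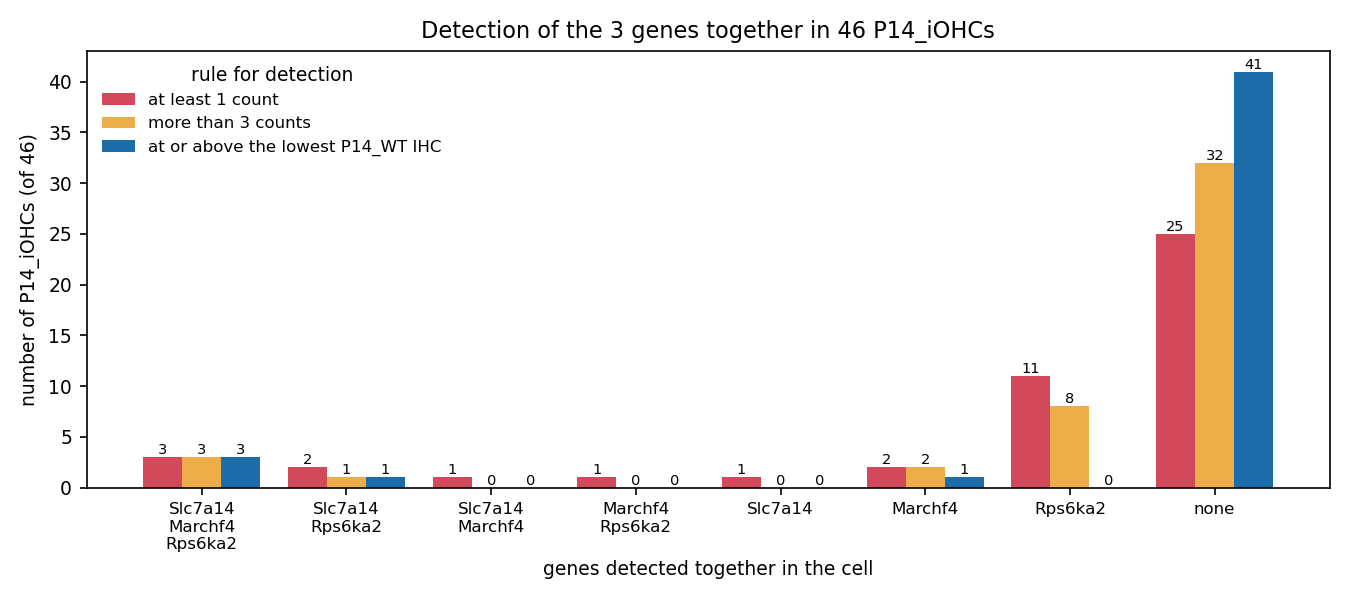
Number of the 46 P14_iOHCs with each combination of the 3 genes, under 3 rules for detection: at least 1 count, more than 3 counts, and a CPM at or above the lowest P14_WT IHC. The 3 cells with all the genes stay at 3 under every rule, while *Rps6ka2* alone goes from 11 cells to 8 and then to 0.

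Many single detections rested on 1 to 3 counts, which a stricter rule removes. Of the 7 cells with *Slc7a14*, 3 had 1 or 2 counts. Of the 7 with *Marchf4*, 2 had 1 or 2 counts, and of the 17 with *Rps6ka2*, 5 had 1 or 2. With more than 3 counts asked for, 4 cells had *Slc7a14*, 5 had *Marchf4* and 12 had *Rps6ka2*, and 32 cells had none. All 4 cells with *Slc7a14* then had *Rps6ka2* (exact 95% interval of the share 39.8 to 100%) and 3 of them had *Marchf4*. In the other direction, 4 of the 12 cells with *Rps6ka2* had *Slc7a14* (33.3%, 9.92 to 65.1) and 3 had *Marchf4* (25.0%, 5.49 to 57.2). No cell of the 34 without *Rps6ka2* had *Slc7a14* (exact 95% interval 0 to 10.3%). Detection was thus nested for *Slc7a14* within *Rps6ka2*, but not for *Marchf4*, since cells 28 and 45 had *Marchf4* without either of the others. All these shares describe the cells of 1 sample.

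The 4 cells with *Slc7a14* held nearly all counts of the 3 genes in P14_iOHCs: 11100 of 11105 counts of *Slc7a14*, 11321 of 11390 of *Marchf4* and 17919 of 18781 of *Rps6ka2*, or 95.4% of the last. Outside them the highest value was 0.106 CPM for *Slc7a14*, 2.98 for *Marchf4* and 27.4 for *Rps6ka2*. With these 4 cells left out, a choice made after their values were seen and by one of those values, the log2 folds against P14_WT IHCs were -11.85 for *Slc7a14*, -9.72 for *Marchf4* and -8.23 for *Rps6ka2*. The group means therefore describe neither the 4 cells nor the other 42.

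P14_iOHC 1 kept the 3 genes at 170 CPM of *Slc7a14*, 176 of *Marchf4* and 384 of *Rps6ka2*, all inside the range of P14_WT IHCs. It also had *Slc17a8* (586 CPM), *Otof* (2307 CPM) and *Calb2* (17827 CPM), which encodes the calcium-binding protein calretinin, inside that range. Its OHC genes were on as well, with 799 CPM of *Slc26a5*, 197 of *Ikzf2* and 16575 of *Ocm*, which encodes oncomodulin. This cell thus carried genes of both kinds of hair cell.

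P14_iOHC 29 had the most *Slc7a14* of the group, 320 CPM, with 143 of *Marchf4* and 124 of *Rps6ka2*. Its *Calb2*, at 8837 CPM, was in the IHC range, but its *Slc17a8* (338 CPM) and *Otof* (1320 CPM) were below the lowest P14_WT IHC, which had 470 and 2168 CPM. Its *Ocm* was 23598 CPM and its *Slc26a5* 220 CPM, the second lowest of the 46.

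P14_iOHC 18 kept *Slc7a14* (203 CPM) and *Rps6ka2* (149 CPM) and had no count of *Marchf4* among 9083541 counts. It had the highest *Slc17a8* (935 CPM) and *Fgf8* (152 CPM) of the 46 P14_iOHCs, and it was the 1 cell of them with no count of *Ikzf2*. Its *Otof* (1500 CPM) and *Calb2* (6150 CPM) were below the lowest P14_WT IHC, which had 2168 and 6371 CPM. Its *Slc26a5* was 514 CPM and its *Ocm* 9093 CPM, both above every P14_WT IHC.

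P14_iOHC 44, the cell that stood apart, had the most *Marchf4* (355 CPM), *Rps6ka2* (538 CPM), *Otof* and *Tbx2* (427 CPM) of the group, with 127 CPM of *Slc7a14*. Its *Calb2*, at 615 CPM, was below the lowest P14_WT IHC at 6371 CPM. Without it, 2 of 45 P14_iOHCs had all 3 genes and 20 had any.

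**Figure D3:**
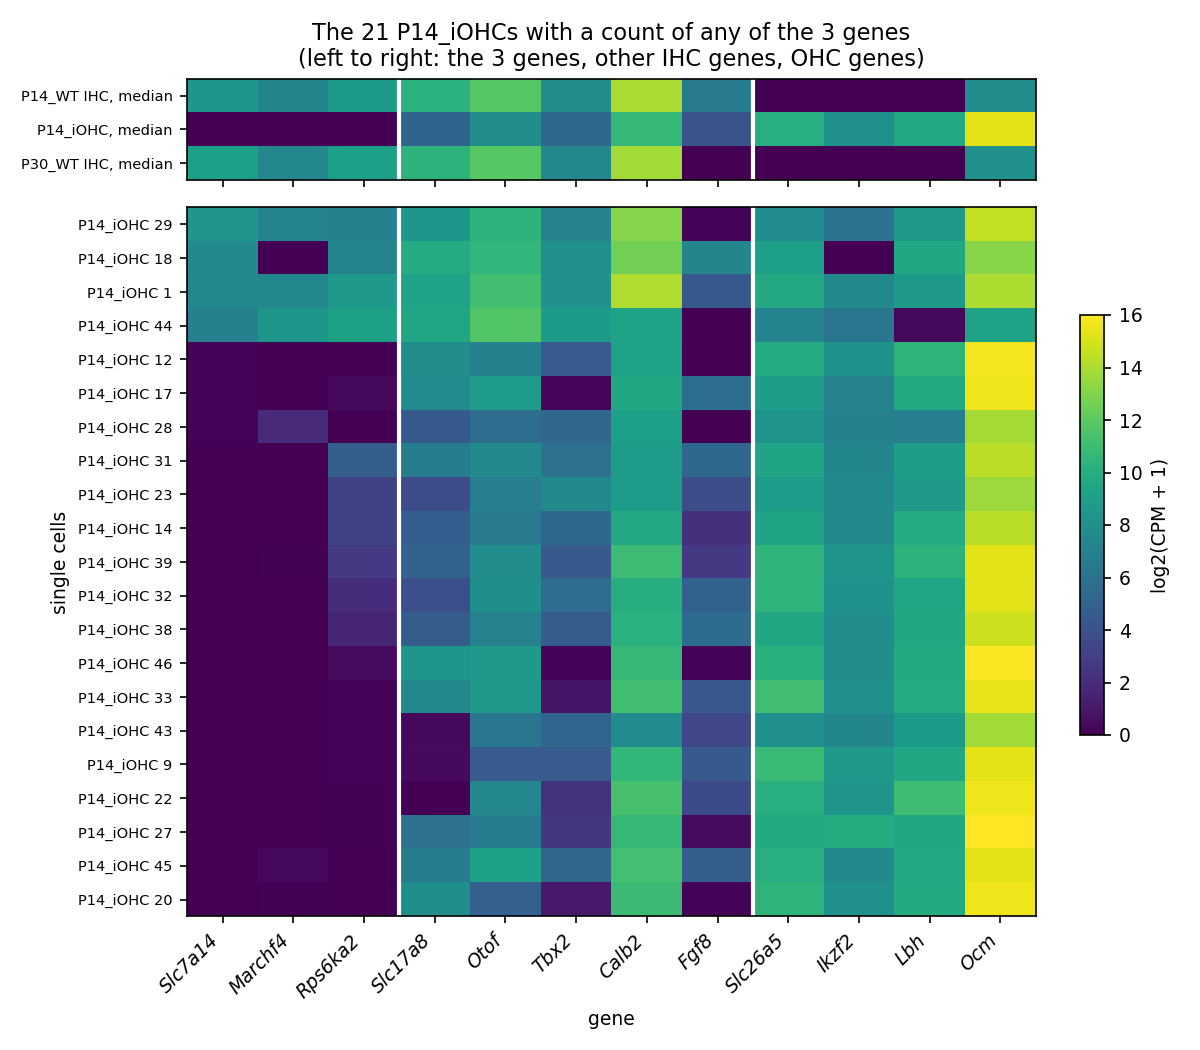
log2(CPM + 1) of the 3 genes, 5 other IHC genes and 4 OHC genes in the 21 P14_iOHCs with a count of any of the 3 genes, one row a cell, under the medians of the 3 groups. The top 4 cells, 29, 18, 1 and 44, have the most *Slc7a14*, *Rps6ka2* and *Otof*, with *Marchf4* at 0 in cell 18. In the rest *Slc7a14* is near 0 and *Rps6ka2* reaches at most 27.4 CPM. All 21 cells, the top 4 included, have counts of *Slc26a5*, *Lbh* and *Ocm*, and all but cell 18 have counts of *Ikzf2*.

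Across all 46 P14_iOHCs, the 4 cells were also the 4 highest in *Otof*, from 1320 to 3235 CPM, while the other 42 ran from 0.104 to 816 CPM. For *Calb2* 3 of the 4 ranked highest and cell 44 ranked 40th. For *Slc17a8* they ranked 1, 2, 3 and 5. For *Fgf8* cell 18 ranked 1, while cells 1, 29 and 44 ranked 22, 35 and 38. *Tbx2* separated them less. It lay at or above the lowest P14_WT IHC (49.5 CPM) in 19 P14_iOHCs, and 12 of those 19 had no count of any of the 3 genes. Cells 4, 40 and 3 had 214, 173 and 150 CPM of *Tbx2*, more than cell 29 with 136, and none of the 3 genes. High *Tbx2* counts were thus found both with and without the 3 genes, and the counts do not say whether those transcripts held the deleted exon.

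**Figure D4:**
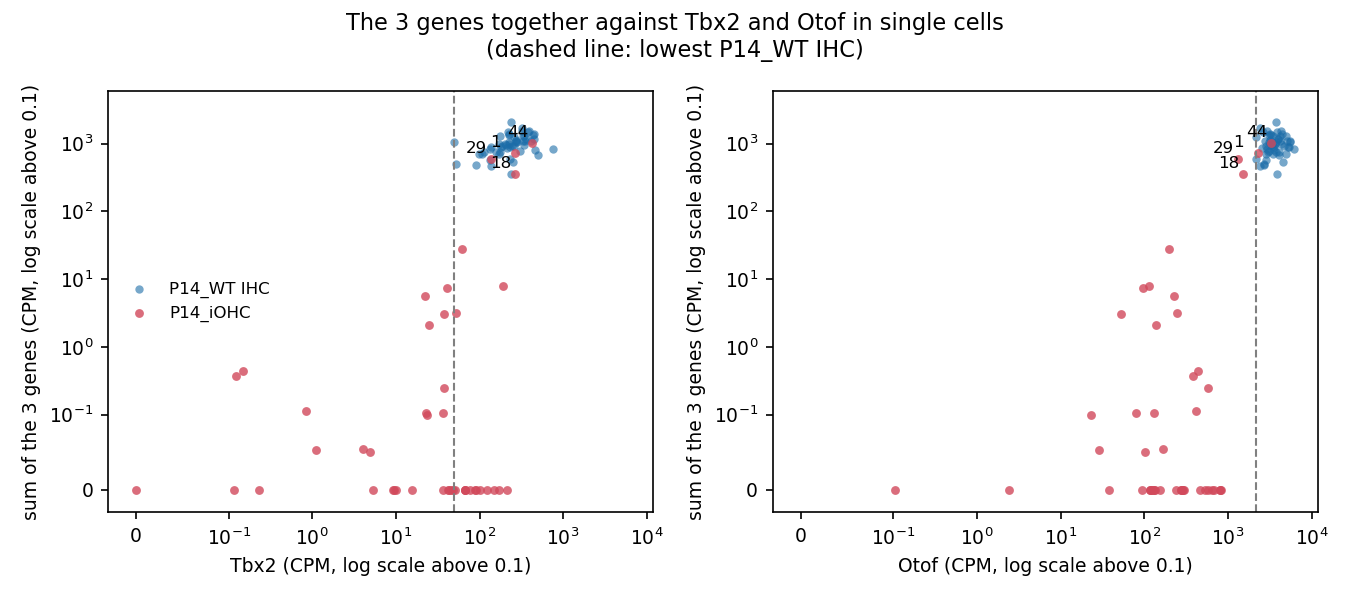
Summed CPM of the 3 genes against *Tbx2* (left) and *Otof* (right) in each P14_WT IHC and P14_iOHC, axes logarithmic above 0.1 CPM; the dashed line is the lowest P14_WT IHC and the numbers name the 4 P14_iOHCs with over 3 counts of *Slc7a14*. Several P14_iOHCs right of the *Tbx2* line lie at 0, whereas for *Otof* the 4 numbered cells lie to the right of all other P14_iOHCs.

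Low levels of *Rps6ka2*, over 3 counts, with at most 2 counts of *Slc7a14* were found in 8 other cells. Cell 31 had 428 counts (27.4 CPM), cell 23 had 139 (7.99 CPM), cell 14 had 72 (7.49 CPM) and cell 39 had 124 (5.60 CPM). Cells 32 and 38 had 3.13 and 2.09 CPM, from 43 and 36 counts, and cells 46 and 17 had 0.367 and 0.344 CPM, from 6 and 7 counts. These 8 cells all lay below the lowest P14_WT IHC at 38.7 CPM. All 8 had *Slc26a5* of at least 433 CPM and *Ikzf2* of at least 136 CPM. The 6 cells above 1 CPM had from 9904 to 13262 detected genes, where the group had a mean of 9009 ± 1742, and supporting cell sums from 1151 to 5898 CPM. Cells 17 and 46 had 8149 and 7923 detected genes and sums of 2.01 and 0.733 CPM. Larger sums, of 8839, 8745 and 7173 CPM, were found in cells 43, 40 and 28, with 2, 0 and 0 counts of *Rps6ka2*. The median supporting cell sum was 2350.5 CPM in the 8 cells and 535 CPM, with a range from 0 to 8745, in the 29 cells without a count of *Rps6ka2*. Over all 46 P14_iOHCs, Spearman's rho of *Rps6ka2* was 0.45 with the number of detected genes and 0.10 with the supporting cell sum. These values include the 4 cells with the most *Rps6ka2*, whose supporting cell sums ran from 0.326 to 819 CPM. What part detected genes and supporting cell sums play in the *Rps6ka2* counts was not tested.

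**Figure D5:**
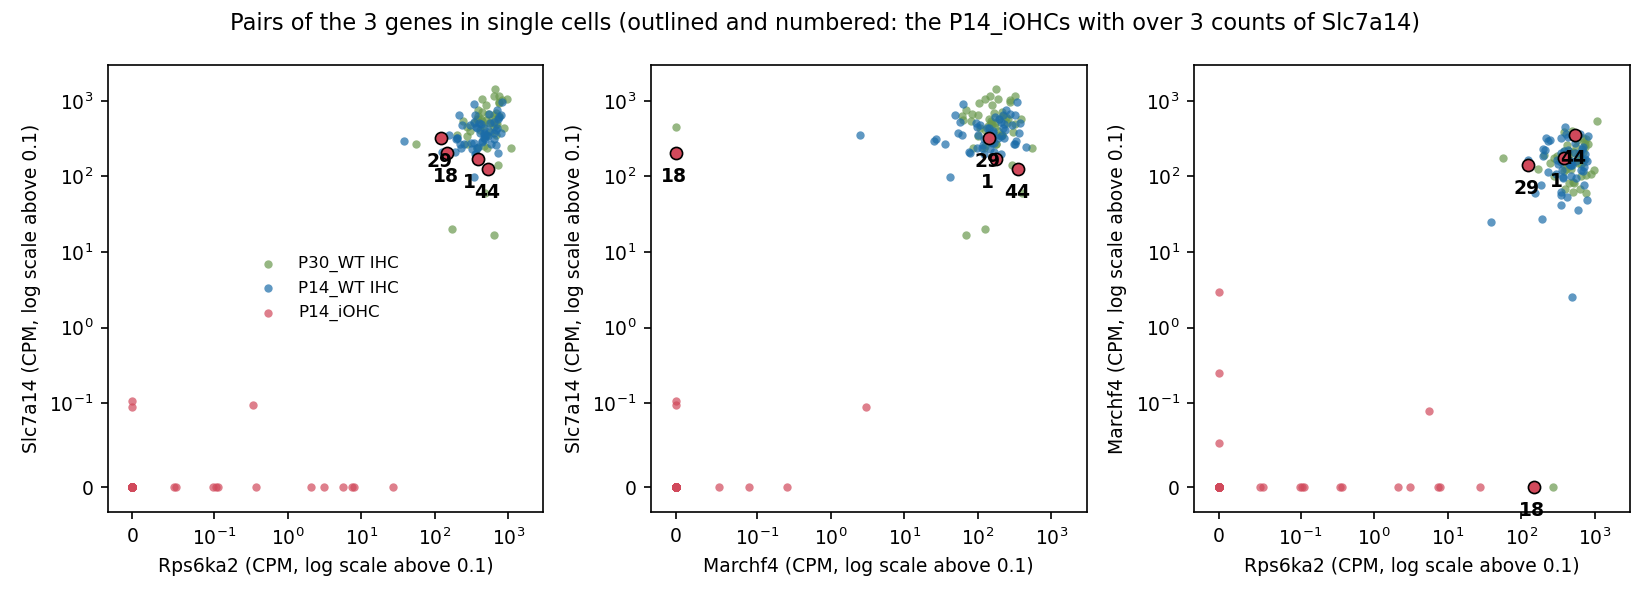
The 3 pairs of genes in every cell, in CPM on axes logarithmic above 0.1, with the 4 P14_iOHCs that have over 3 counts of *Slc7a14* outlined and numbered. These cells overlap the IHC clouds, except cell 18 at 0 for *Marchf4*, and the remaining P14_iOHCs lie on or near an axis.

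Across the 46 P14_iOHCs, Spearman's rho was 0.54 between *Slc7a14* and *Marchf4*, 0.44 between *Slc7a14* and *Rps6ka2* and 0.31 between *Marchf4* and *Rps6ka2*. Pearson's r of log2(CPM + 1), which gives the few cells with high levels more weight, was 0.83, 0.88 and 0.78. These rest on the few cells with counts, since 36, 27 and 26 of the 46 were at 0 for both genes of the pair. Across the 55 P14_WT IHCs rho was 0.23, 0.36 and 0.10, and across the 50 P30_WT IHCs it was 0.02, 0.33 and 0.18. Pearson's r was 0.20, 0.32 and 0.17 in the former and 0.03, 0.28 and 0.19 in the latter. In the 27 P30_WT IHCs above the gap in totals rho was -0.18, 0.23 and -0.13, so the sign at P30 did not hold for the pairs with *Marchf4*. Cells of a group share animals in an unknown way, so these are descriptions.

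The relatives of the 3 genes were too few for their counts to be set apart from the shares of all genes, 4.75% lower and 8.21% higher. None of the 7 members of the SLC7 family and its heavy chains that had enough counts was past the fold in the lower direction in P14_iOHCs, and 2 were past it in the higher. Their median log2 fold was 0.08, beside 0.09 over all genes compared. These 2 were *Slc7a11*, the cystine and glutamate exchanger, in 40 of 46 P14_iOHCs and 4 of 55 P14_WT IHCs (6.45 against 0.00506 CPM), and *Slc7a8*, a neutral amino acid transporter, in 10 and 5 cells (8.63 against 1.34 CPM). *Slc3a2*, the heavy chain that several of these transporters need, had 57.7 against 77.7 CPM. None of 8 other lysosomal transporters, mainly of amino acids, passed the fold in either direction, with a median log2 fold of 0.14. Of these, *Slc38a9*, an arginine sensor of the lysosome, had 33.6 against 45.8 CPM.

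Among the RING-CH ligases other than *Marchf4*, none of the 7 compared passed the fold, and their median log2 fold was -0.28. The level of *Marchf7* was 123 CPM in P14_iOHCs beside 121 in P14_WT IHCs, with a count in 40 of 46 and 55 of 55 cells. *Marchf5*, a ligase of the outer mitochondrial membrane, had 89.7 against 109 CPM.

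Among the 5 other RSK and MSK kinases, *Rps6ka1*, which encodes RSK1, was past the fold in the opposite direction to *Rps6ka2*. It was detected in 27 of 46 P14_iOHCs, with a median of 0.124 CPM and a highest value of 347, and in 3 of 55 P14_WT IHCs (log2 fold 3.38). In the 6 cells with *Rps6ka2* between 2.09 and 27.4 CPM, *Rps6ka1* ran from 35.6 to 152 CPM. Among the cells with 1 to 7 counts of *Rps6ka2*, it was 0 in cells 17, 27 and 46, 0.726 in cell 33 and between 67.8 and 95.9 CPM in cells 9, 22 and 43. The highest *Rps6ka1*, 347 CPM, was in cell 40, followed by 217 CPM in cell 24, and neither cell had a count of *Rps6ka2*. In the 4 cells with *Slc7a14*, *Rps6ka1* was 26.3 CPM in cell 1, 13.3 in cell 29 and 0 in cells 18 and 44. *Rps6ka3*, encoding RSK2, had 24.4 against 17.7 CPM. Supporting cell markers were higher in the same group, as given above, and their part in *Rps6ka1* was not tested.

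Of 28 genes of the ERK cascade above RSK, its feedback inhibitors and RSK substrates, 1 passed the fold in the lower direction and 4 in the higher, beside 4.75% and 8.21% of all genes compared, with a median log2 fold of 0.18. The lower one was *Ntrk2*, the receptor of brain-derived neurotrophic factor, detected in 48 of 55 P14_WT IHCs and 5 of 46 P14_iOHCs (43.1 against 2.81 CPM). The higher ones were *Spry2* and *Spred1*, feedback inhibitors of the cascade, with log2 folds of 5.43 and 2.94, the receptor *Egfr* with 3.07 and the immediate-early gene *Nr4a1* with 2.40. *Mapk3*, which encodes the kinase ERK1, was not past the fold, with 105 against 64.1 CPM, and neither was *Pdpk1*, which encodes PDK1, another kinase that acts on RSK, with 78.1 against 73.7 CPM. *Rps6*, the ribosomal protein after which the RSKs are named, had 300 against 281 CPM.

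From P14 to P30 the 3 genes stayed on in IHCs. *Slc7a14* ran from 16.9 through a median of 516 to 1421 CPM in the 50 P30_WT IHCs, with a mean of 552 ± 306. *Marchf4* ran from 0 through 168 to 537 CPM, with a mean of 181 ± 98.6, and *Rps6ka2* from 56.0 through 515 to 1082 CPM, with a mean of 535 ± 210. The ranges of the ages overlapped for each gene, and the differences in the mean were smaller than the SD between cells of either age. The log2 folds from summed counts were 0.43, 0.11 and 0.30, so none of the 3 was past the fold, with 2.96% of the 12946 genes compared in the lower direction and 2.36% in the higher past it. With DESeq2's size factors as scaling, under which the median of all genes was higher at P30 by 0.30 more, these folds were 0.84, 0.40 and 0.61. This comparison and that of the P14_iOHCs share the P14_WT IHCs. By contrast *Fgf8*, a secreted growth factor of young IHCs, had 137 CPM at P14 and 0.432 at P30 from summed counts, and was detected in 50 of 55 and 5 of 50 cells.

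A single P30_WT IHC lacked 1 of the genes, and 3 others had little *Slc7a14*. P30_WT IHC 23 had no count of *Marchf4* among 6074773 counts, with 456 CPM of *Slc7a14* and 275 of *Rps6ka2*. In the same cell *Tbx2* (3.29 CPM) and *Calb2* (1258 CPM) were the lowest of the 50, and mitochondrial genes took 37.6% of the counts, the highest share of any P30_WT IHC. *Slc7a14* was at 16.9 CPM in cell 27, 20.4 in cell 16 and 60.5 in cell 32, below every P14_WT IHC, while *Rps6ka2* in these cells was 634, 171 and 486 CPM. None of these 4 cells had a count of *Ikzf2*. A level well below that of other IHCs was thus seen for single genes in wild-type cells too.

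Relatives at P30 were again too few to be set apart from the shares of all genes, 2.96% lower and 2.36% higher. Of 6 compared in the SLC7 family and its heavy chains, 1 was past the fold, in the higher direction. This was *Slc7a11* (4.83 against 0.00506 CPM in P14_WT IHCs, 28 of 50 cells). Of 27 genes of the ERK cascade, its feedback inhibitors and RSK substrates, *Spry2* was past the fold in the higher direction (log2 fold 2.47) and *Fgfr1* in the lower (-2.31). *Spry2* was detected in 14 of 50 P30_WT IHCs and 15 of 55 P14_WT IHCs, with 1.85 against 0.25 CPM. None of the 7 RING-CH ligases, 3 RSK or MSK kinases and 8 other lysosomal transporters compared was past the fold. *Rps6ka1* and *Rps6ka4* had too few counts in the IHCs to be compared.

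Over the cells of all groups, the genes most like each of the 3 were largely the other members. By Pearson's r of log2(CPM + 1) over 14782 genes, *Slc7a14* was most like *Rps6ka2* (0.96), *Marchf4* (0.92), *Ripor3* (0.92), *Ano4* (0.90) and *Tpbgl* (0.90). *Rps6ka2* was most like *Slc7a14*, followed by the same 4 genes in the same order. *Marchf4* was most like *Ripor3* (0.93), followed by *Rps6ka2*, *Slc7a14*, *Ano4* and *Gm30191*. *Otof* ranked 8th for *Slc7a14* and *Tbx2* 68th. Least like all 3 were *Slc26a5* and *Ikzf2*, with r between -0.89 and -0.95. The cells of all groups enter these values, so a gene that differs between IHCs and P14_iOHCs as the members do ranks high.

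Within the 46 P14_iOHCs alone, genes were ranked if they reached 5 counts in 10 or more cells, except that the members were always ranked. *Slc7a14* and *Marchf4*, with more than 3 counts in 4 and 5 cells, fell short of that filter. So did *Ripor3*, *Ano4* and *Tpbgl*, with 7, 5 and 2 such cells, which therefore could not rank. Over the 11161 genes, *Slc7a14* was again most like *Rps6ka2* (0.88) and *Marchf4* (0.83), values that rest on the few cells with high levels. These were followed by *Arvcf*, a catenin, at 0.71 and *Pla2g15*, a lysosomal phospholipase, at 0.70. *Nrgn*, which encodes the calmodulin-binding protein neurogranin, came after *Slc7a14* for *Marchf4* (0.81), and *Rarres1* ranked next after the other members for *Rps6ka2* (0.75). *Arvcf* had more than 3 counts in 12 P14_iOHCs, the 4 cells with *Slc7a14* among them, and *Rarres1* in 10.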

How the data were processed

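Single picked cells of the mouse cochlea were sequenced after Smart-Seq HT amplification. The values used are counts per gene, deposited by the authors as 1 matrix of 55291 genes. Per the paper and the submitters' processing notes, reads were aligned with HISAT2 2.1.0 to GRCm38 and counted with HTSeq 0.10.0, and FastQC 0.11.9, Trimmomatic 0.39 and StringTie 1.3.5 are also named.

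CPM was the count over the total of the cell, times 1000000 (Python 3.11.15, pandas 2.3.3, scipy 1.17.1). A gene was called detected at 1 count or more. Folds came from counts summed over a group plus 0.1 CPM, for genes that reached 5 counts in 10 or more of the cells compared, and a gene was called past a log2 fold of 2 in size, the fold the study used. No test was made, because the labels name no animal behind a cell. Intervals are exact (Clopper-Pearson, 95%). TMM factors came from edgeR 4.0.16 and size factors from DESeq2 1.42.0, for the alternatives only. Simulated data tested the folds from summed counts and the ranking by likeness, both on values without the many zeros of the P14_iOHCs. Neither simulation held genes with nearly all counts in a few cells, as the 3 genes had in P14_iOHCs. The simulated folds were also centred on genes known to be unchanged, which the folds given here were not. The detection patterns were not tested in this way.

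The 3 genes, their relatives and the lists were chosen with earlier results of these data known. Named genes were the members, their relatives in the lists, 5 IHC and 4 OHC genes for comparison, and the 5 genes most like each member. Cells had from 4326416 to 25035444 counts, and 3 counts were at most 0.693 CPM. Alternatives changed the rule for detection, the depth (thinned to 4326416 counts), the set of totals, the scaling, the filter, the pseudocount and the cells included.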

Additional observations from a re-analysis of the deposited data

How the results depend on the processing

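No paired analysis was possible because the results come from no test and the numbers in the titles only name cells. None of the log2 folds of the 3 genes, and none of the correlations across P14_iOHCs, changed sign under the alternatives run for them. Across P30_WT IHCs the rho of *Slc7a14* and *Marchf4* (0.02) and of *Marchf4* and *Rps6ka2* (0.18) became -0.18 and -0.13 in the upper set of totals. The rule for detection moved shares of P14_iOHCs most. *Rps6ka2* was detected in 37.0% with 1 count, in 21.7% with 10 counts or with 1 CPM, and in 8.70% at or above the lowest P14_WT IHC. Any of the 3 genes was detected in 45.7% with 1 count, 30.4% with more than 3 counts, 23.9% with 10 counts or 1 CPM and 10.9% at the IHC level, so that none was detected in 54.3%, 69.6%, 76.1% and 89.1%. The share with all 3 stayed at 6.52% under these rules. Leaving out 1 cell at a time gave log2 folds against P14_WT IHCs from -5.53 to -4.61 for *Slc7a14* (lowest without P14_iOHC 29), from -4.96 to -3.38 for *Marchf4* and from -5.32 to -3.95 for *Rps6ka2* (both lowest without P14_iOHC 44). In the lower set of totals alone *Slc7a14* had -3.80. Without the 4 cells with over 3 counts of *Slc7a14*, chosen after the values were seen, the folds were -11.85, -9.72 and -8.23. Counts of genes past the fold depended on the filter and pseudocount. In P14_iOHCs 650 genes were lower, 2170 with no filter, 1284 with at least 1 CPM in the higher group and 381 with a pseudocount of 1 CPM, while 1123 were higher, 3187 with no filter and 2210 with 1 CPM. At P30 383 genes were lower, 2087 with no filter, 1103 with 1 CPM and 192 with a pseudocount of 1, and 306 were higher, 1832, 1135 and 129. Depth limits the cells at 0: under thinning to 4326416 counts, 5, 5 and 14 P14_iOHCs had *Slc7a14*, *Marchf4* and *Rps6ka2*.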
